A study of Mus musculus with 12 samples.

Results

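The genes described here are 10 named genes of macroautophagy, measured by RNA sequencing in mouse cortical and medullary thymic epithelial cells (cTEC and mTEC): Atg5, Atg7, Atg12, Atg16l1, Becn1, Map1lc3a, Map1lc3b, Gabarap, Sqstm1 and Tfeb. They were taken by symbol, all 10 were found, and they stand among 34547 genes with a matched transcript. The 12 libraries fell into 4 groups of 3: cTEC and mTEC of wild-type (WT) C57BL/6 mice, and cTEC and mTEC of Aβ0/0 mice (AB0 in the sample names), which lack MHC class II because the H2-Ab1 gene is disrupted. Each library came from thymi pooled from 5 to 10 mice of 4 to 6 weeks, and cells were sorted as EpCAM+CD45- and Ly51+UEA1- (cTEC) or Ly51-UEA1+ (mTEC). The disruption is carried in every cell of the Aβ0/0 mouse, not in epithelium alone. The questions the design asks of these genes are whether they differ between the subsets and whether they differ where MHC class II is lost.

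Macroautophagy encloses cytoplasm in a double membrane that fuses with the lysosome. A kinase complex and a lipid kinase complex that contains Beclin 1 (Becn1) start the membrane. ATG7, the E1-like enzyme of both conjugation reactions, activates ATG12 for its bond to ATG5, and ATG5-ATG12 with ATG16L1 then attaches ATG8 proteins to the membrane lipid. The ATG8 proteins include LC3A (Map1lc3a), LC3B (Map1lc3b) and GABARAP. Sequestosome 1 or p62 (Sqstm1) links ubiquitinated cargo to LC3, and TFEB is a transcription factor for autophagy and lysosome genes. Thymic epithelium is known for a high constitutive rate of autophagy, a route by which cytosolic proteins reach MHC class II for display to developing CD4+ T cells. RNA levels do not measure that rate.

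With all transcripts summed, the ATG8 genes Map1lc3a and Map1lc3b ranked in opposite order in the subsets. The first 300 bases of each coding sequence are therefore shown, to make clear that reads of the 2 coding sequences could be told apart. They come from the GRCm38 transcripts Map1lc3a-201 (chromosome 2, plus strand) and Map1lc3b-201 (chromosome 8, plus strand), with the longest run they share in capitals.
Map1lc3a: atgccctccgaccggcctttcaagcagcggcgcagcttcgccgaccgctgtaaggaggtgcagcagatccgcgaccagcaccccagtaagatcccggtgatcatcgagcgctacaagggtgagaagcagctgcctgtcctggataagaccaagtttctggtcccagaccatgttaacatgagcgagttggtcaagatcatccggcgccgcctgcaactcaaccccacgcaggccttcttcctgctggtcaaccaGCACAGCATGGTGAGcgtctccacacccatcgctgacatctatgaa
Map1lc3b: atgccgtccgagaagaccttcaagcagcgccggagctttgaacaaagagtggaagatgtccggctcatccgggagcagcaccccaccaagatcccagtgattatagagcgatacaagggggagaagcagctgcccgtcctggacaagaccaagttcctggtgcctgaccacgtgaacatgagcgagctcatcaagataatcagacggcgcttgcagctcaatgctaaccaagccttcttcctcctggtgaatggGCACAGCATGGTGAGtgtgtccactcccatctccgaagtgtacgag
The whole coding sequences, 363 and 375 bases without the stop codon, were identical at 281 of 376 aligned positions (74.73%). The shared run was 15 bases long and no stretch of 31 bases was common to both. Against Gabarap, of 351 coding bases, the identity was 51.21% for Map1lc3a and 50.92% for Map1lc3b. Map1lc3b has 4 processed pseudogenes at least 95% identical to it over at least 300 bases (Gm6055, Gm6054, Gm5612 and Gm12727), and the most abundant, Gm6055, took counts equal to at most 3.29% of those of Map1lc3b in any library. On the TPM scale Gm6055 reached 86.1 TPM, while Map1lc3b stood at 251 to 535 TPM, and the TPM values below do not include the copies. Map1lc3b also lies within Gm20388 on the same strand, which reached 21.1 TPM, and overlaps Zcchc14 on the opposite strand, which reached 9.5 TPM.

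The libraries held 21710319 to 36139815 estimated counts. The sorted subsets carried their markers: 7 cTEC markers summed to 6422 to 16420 CPM (counts scaled to a common library size with TMM) in cTEC and 411 to 793 CPM in mTEC, and 7 mTEC markers to 653 to 1043 CPM in cTEC and 2462 to 3801 CPM in mTEC. Markers of other cells also differed between the sorts. A list of 6 fibroblast markers summed to 2288 to 3094 CPM in cTEC and 195 to 449 CPM in mTEC, with 3 of the 6 lower in mTEC past the threshold and 0 higher, a list of 9 thymocyte markers to 291 to 833 and 46.7 to 165 CPM, with 7 of the 9 lower in mTEC and 0 higher, and a list of 9 markers of dendritic cells, macrophages and B cells to 9.44 to 284 and 123 to 672 CPM, with 4 of the 9 higher in mTEC and 0 lower. A list of 5 endothelial markers summed to 17.6 to 85.9 and 10.0 to 25.4 CPM, with 2 of the 5 lower in mTEC, and a list of 4 erythroid markers to 0.276 to 259 and 34.3 to 218 CPM, with 1 of the 4 higher. H2-Ab1 read 6507, 7006 and 10040 CPM in WT cTEC against 2158, 3716 and 2745 CPM in Aβ0/0 cTEC, and 9032, 11200 and 10490 against 1900, 3853 and 2925 CPM in mTEC, without overlap in either subset. The difference passed the threshold in mTEC (edgeR, log2 1.81, SE 0.27, adjusted p = 0.0352) and not in cTEC (1.47, SE 0.34, adjusted p = 0.695).

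All 10 genes were transcribed in every group. On the TPM scale, which corrects for transcript length so that genes can be ranked, they formed a high and a low tier. Gabarap averaged 507 TPM over the 4 group means, Map1lc3a 386, Map1lc3b 371 and Sqstm1 307 TPM. Becn1 followed at 89.2 TPM, and below it came the conjugation genes Atg5 (30.8 TPM), Atg12 (27.7), Atg16l1 (20.1) and Atg7 (18.2), with Tfeb last at 9.71 TPM. The genes for ATG8 proteins and their cargo receptor were thus the abundant ones and those for the enzymes that conjugate ATG8 the scarce ones. In WT cTEC the order was Gabarap, Map1lc3b, Sqstm1, Map1lc3a and Becn1, and in WT mTEC it was Map1lc3a, Gabarap, Map1lc3b, Sqstm1 and Becn1. Map1lc3a was therefore 4th of the 10 in cTEC and 1st in mTEC, in both genotypes. On the TPM of protein-coding transcripts alone it was 4th in mTEC as well as in cTEC. On that scale Becn1, at 7.66 to 11.1 TPM by group mean, was 9th or 10th of the 10, below the conjugation genes. With all transcripts summed, the range of Map1lc3a in WT mTEC overlapped that of Gabarap, at 507 ± 32.2 and 506 ± 9.14 TPM (SD, n = 3), whereas in Aβ0/0 mTEC its lowest library, at 543 TPM (542.5), lay above the highest Gabarap value of 532.0 TPM. Among the low tier, Atg5 and Atg12 overlapped in 3 of the 4 groups, and Atg16l1 and Atg7 overlapped in all 4.

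**Figure D1:**
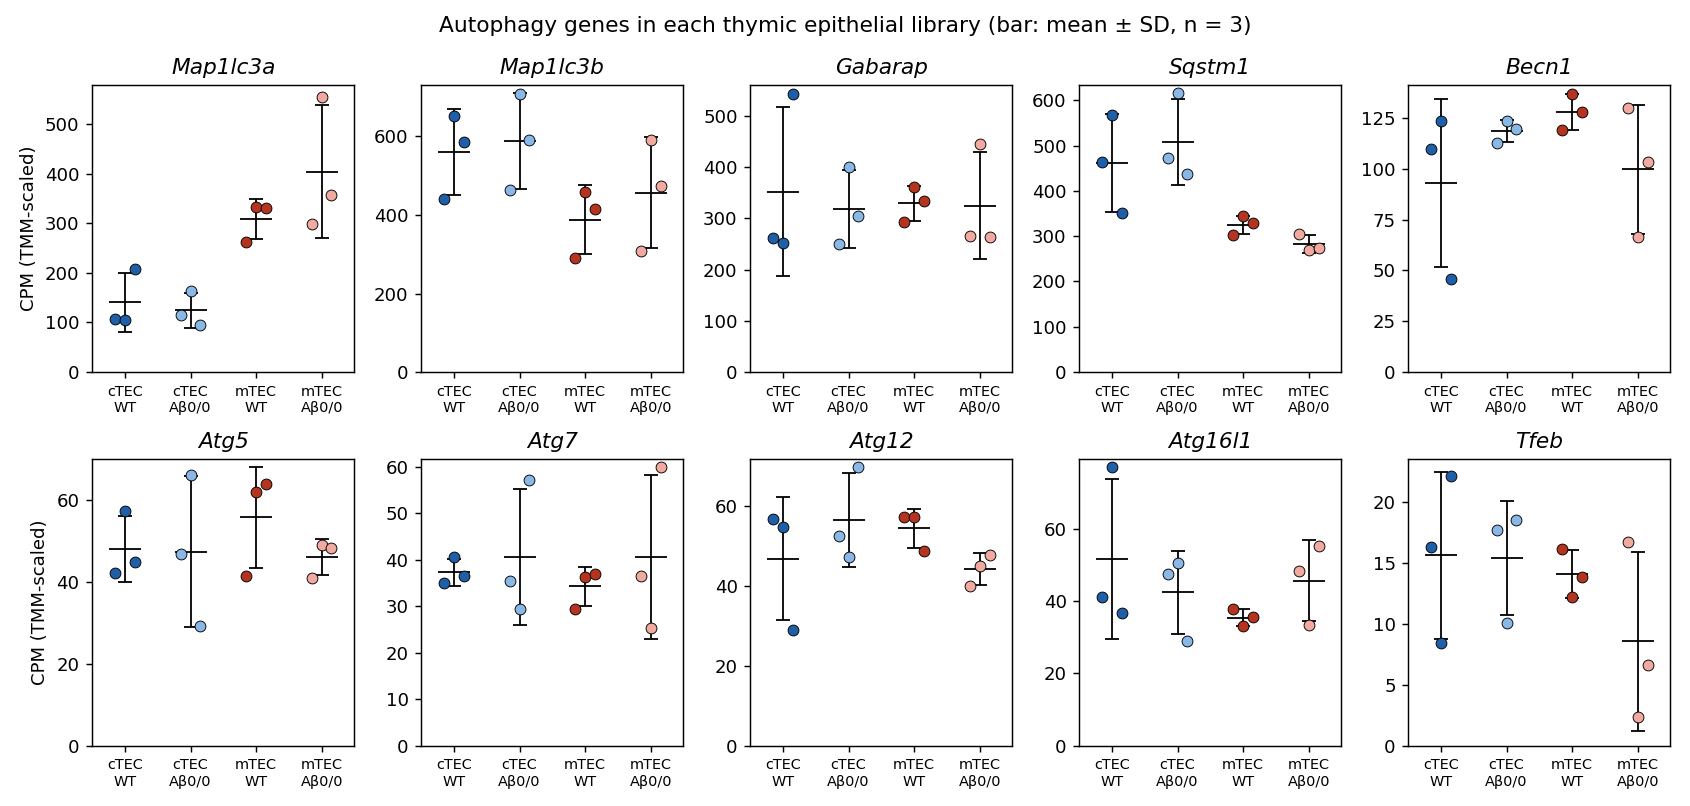
TMM-scaled CPM of the 10 genes in each library, with 1 panel per gene and the groups cTEC WT, cTEC Aβ0/0, mTEC WT and mTEC Aβ0/0 from left to right. Points are libraries and bars the mean ± SD (n = 3), and the groups separate by subset for Map1lc3a (cTEC at most 208 CPM, mTEC at least 261 CPM) and Sqstm1 (cTEC at least 351 CPM, mTEC at most 344 CPM).

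Map1lc3a was the member that differed most between the subsets, being higher in mTEC. It lies on chromosome 2 (chr2:155276297-155278073, plus strand, GRCm38). Its CPM were 107, 105 and 208 in WT cTEC and 114, 164 and 94.4 in Aβ0/0 cTEC, against 261, 334 and 331 in WT mTEC and 299, 555 and 357 in Aβ0/0 mTEC. Every mTEC library lay above every cTEC library, and the highest cTEC value came from WT replicate 3. Over both genotypes the level in mTEC was 2.68-fold that in cTEC (edgeR, log2 1.42, SE 0.24, 95% interval 0.90 to 1.94, adjusted p = 0.00133). Of the 10 genes, 1 rose and 1 fell in this comparison, and 2 did not overlap between the subsets. Over all 19461 genes tested, 24.3% passed the same threshold and 12% did not overlap, so that 2 of 10 is near the background. The markers of dendritic cells, macrophages and B cells also moved up in mTEC, 4 of 9 past the threshold, and their part in the difference of Map1lc3a was not tested.

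Within WT the difference of Map1lc3a was log2 1.14 (SE 0.32, edgeR adjusted p = 0.0311), the only member of 10 past the threshold, against 26.8% of all genes. Within Aβ0/0 it was log2 1.69 (SE 0.33, edgeR adjusted p = 0.0287), again the only member of 10, against 5.6% of all genes. That share stands for 878 genes, which became 338 to 456 without any 1 of the 6 libraries. In WT, Map1lc3a stayed past the threshold only without cTEC WT replicate 3 (log2 1.54, adjusted p = 0.000975), and leaving out any of the other 5 libraries gave log2 0.97 to 1.23 with adjusted p from 0.0551 to 0.107. In Aβ0/0 the call held without cTEC replicate 2 (adjusted p = 0.0479) or mTEC replicate 1 (0.0378) and was lost without any of the other 4 (0.0778 to 0.107), with log2 1.39 to 1.93 over the 6. Over both genotypes it held with each of the 12 libraries left out, at log2 1.27 to 1.62 and adjusted p of at most 0.00479.

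Most of the difference was assigned to 1 of the 3 annotated transcripts. Map1lc3a-201, the protein-coding form of 4 exons, averaged 72.2 ± 11.3 TPM in WT cTEC and 67.1 ± 12.4 in Aβ0/0 cTEC, against 101 ± 9.02 in WT mTEC and 113 ± 12.3 in Aβ0/0 mTEC (SD, n = 3). Map1lc3a-203, annotated as a processed transcript with no coding sequence, averaged 139.6 ± 40.0 and 139.8 ± 26.8 TPM in the cTEC groups and 378 ± 39.6 and 464 ± 85.0 TPM in the mTEC groups. Each transcript was higher in all 6 mTEC libraries than in all 6 cTEC libraries. The shorter one started within the first intron of Map1lc3a-201 and then shared its remaining exons, so that only reads at the 5′ end separate them. Which reads carried the assignment was not tested. The bases found at the start of Map1lc3a-203 and not in Map1lc3a-201 (chr2:155276889-155276957, plus strand) are shown because the larger share of the difference was assigned to Map1lc3a-203, with none in capitals.
Map1lc3a-203: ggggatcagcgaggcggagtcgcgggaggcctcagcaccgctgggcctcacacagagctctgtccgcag
The ratio of Map1lc3a-203 to Map1lc3a-201 within a library was 1.29, 1.82 and 2.92 in WT cTEC and 1.91, 2.24 and 2.11 in Aβ0/0 cTEC. It was 3.02, 4.38 and 3.97 in WT mTEC and 3.24, 4.88 and 4.27 in Aβ0/0 mTEC, again without overlap of the subsets. When only protein-coding transcripts were summed per gene, the difference of Map1lc3a shrank to log2 0.80 over both genotypes (edgeR adjusted p = 0.00874). The calls within WT (log2 0.56, adjusted p = 0.111) and within Aβ0/0 (log2 1.03, adjusted p = 0.119) were then lost.

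**Figure D2:**
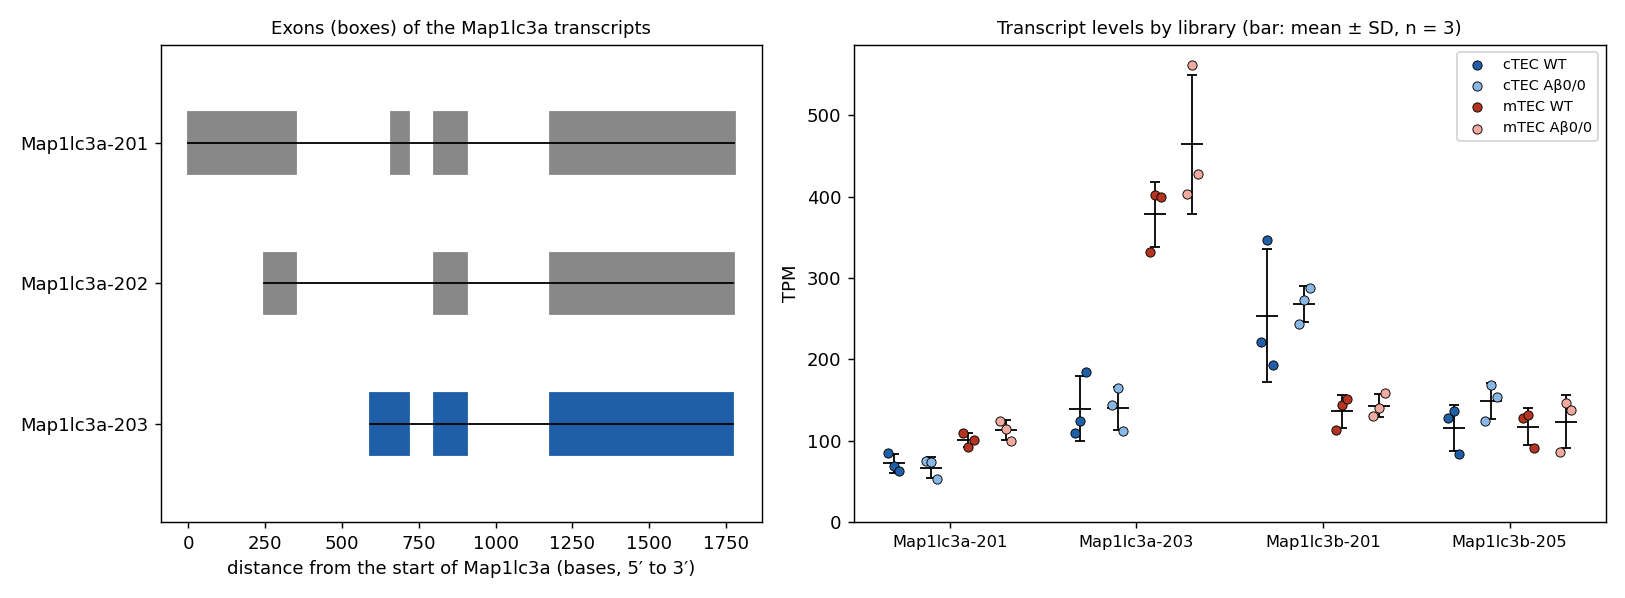
Left, the exons (boxes) of the 3 annotated Map1lc3a transcripts against distance in bases from the start of the gene. Right, TPM of 2 transcripts each of Map1lc3a and Map1lc3b by library and group (points, libraries, bars, mean ± SD, n = 3), where Map1lc3a-203 stands at 332 to 561 TPM in mTEC and 109 to 185 TPM in cTEC.

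Map1lc3b, the gene of the LC3 form most used as an autophagosome marker, stood the other way round. It lies at chr8:121590361-121598760 on the plus strand and read 440.5, 653 and 587 CPM in WT cTEC and 463, 708 and 592 CPM in Aβ0/0 cTEC. In mTEC it read 289, 459 and 414 CPM in WT and 308, 590 and 474 CPM in Aβ0/0. In each of the 6 pools the mTEC value was below that of the cTEC sorted from the same pool, although the groups overlapped. Without regard to the pool, the level in mTEC was 0.734-fold that in cTEC (edgeR, log2 -0.45, SE 0.20, adjusted p = 0.136), and with the pool as a block the difference passed the threshold (log2 -0.47, adjusted p = 0.0235). Its full-length transcript Map1lc3b-201 averaged 254 ± 81.6 and 268 ± 22.4 TPM in WT and Aβ0/0 cTEC and 136 ± 20.7 and 143 ± 14.4 TPM in mTEC, while the shorter Map1lc3b-205 gave 116 ± 28.0, 149 ± 22.3, 117 ± 22.4 and 124 ± 32.6 TPM in the same order. These transcript values were not tested.

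Set against each other within a library, the LC3 genes changed rank. The ratio of Map1lc3a to Map1lc3b TPM was 0.509, 0.369 and 0.908 in WT cTEC and 0.547, 0.490 and 0.367 in Aβ0/0 cTEC. It was 1.76, 1.54 and 1.77 in WT mTEC and 2.16, 1.87 and 1.58 in Aβ0/0 mTEC. Map1lc3b was thus the more abundant LC3 transcript in all 6 cTEC libraries and Map1lc3a in all 6 mTEC libraries. Between the coding transcripts Map1lc3a-201 and Map1lc3b-201 the ratio was 0.183 to 0.384 in cTEC and 0.630 to 0.976 in mTEC, so that the subsets still did not overlap but Map1lc3b-201 remained the higher in every library.

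The TPM of Map1lc3a, Map1lc3b, Gabarap, Gabarapl1 and Gabarapl2 summed to 1424 ± 90.6 in WT cTEC, 1455 ± 123 in Aβ0/0 cTEC, 1535 ± 88.7 in WT mTEC and 1576 ± 263 in Aβ0/0 mTEC (SD, n = 3), with overlapping ranges. Map1lc3a supplied 11.8% to 17.9% of that sum in cTEC and 32.0% to 39.3% in mTEC. On protein-coding transcripts alone the sum was 993 ± 81.5 and 1029 ± 72.1 TPM in WT and Aβ0/0 cTEC and 862 ± 30.0 and 849.6 ± 119.6 TPM in mTEC, and Map1lc3a supplied 5.37% to 8.93% of it in cTEC and 10.3% to 15.8% in mTEC. Gabarap, whose product acts late in autophagosome maturation, supplied 32.1% to 45.0% of the sum over all transcripts in cTEC and 26.9% to 34.7% in mTEC. Its CPM were 262, 252 and 543 in WT cTEC, 249.8, 401 and 304 in Aβ0/0 cTEC, 294, 360.5 and 334 in WT mTEC and 265, 445 and 263 in Aβ0/0 mTEC. The high WT cTEC value was again replicate 3, and the subsets did not differ beyond their spread (log2 -0.0338, 95% interval -0.54 to 0.47, edgeR adjusted p = 0.972). Of the 5 genes of the family, 1 rose in mTEC and 0 fell past the threshold, near the 15.1% and 9.2% of all genes, with Gabarapl1 at log2 -0.67 (SE 0.24, edgeR adjusted p = 0.0591) and Gabarapl2 at log2 -0.16 (SE 0.26, adjusted p = 0.731).

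**Figure D3:**
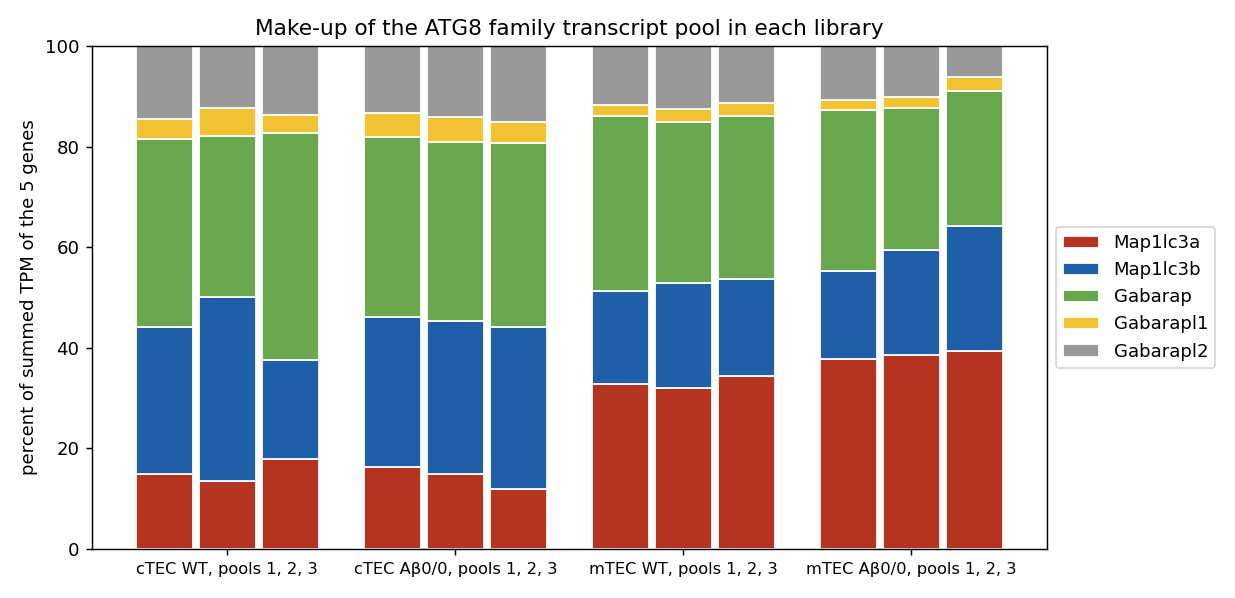
Share of each of the 5 ATG8 family genes in their summed TPM over all transcripts, as stacked bars with 1 bar per library, grouped by subset and genotype. Map1lc3a takes 11.8% to 17.9% in the 6 cTEC libraries and 32.0% to 39.3% in the 6 mTEC libraries.

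Sqstm1, the p62 cargo receptor that is itself degraded by autophagy and also induced as a stress response gene, was lower in mTEC. It lies at chr11:50199366-50210827 on the minus strand. Its CPM were 465, 568 and 351 in WT cTEC and 472, 616 and 437 in Aβ0/0 cTEC, against 303, 344 and 328 in WT mTEC and 305, 269 and 275 in Aβ0/0 mTEC. All 6 mTEC libraries lay below all 6 cTEC libraries, and the gap was narrow, from 351 CPM in WT cTEC replicate 3 to 344 CPM in WT mTEC replicate 2. Over both genotypes the level in mTEC was 0.626-fold that in cTEC (edgeR, log2 -0.68, SE 0.16, 95% interval -1.01 to -0.34, adjusted p = 0.00861), and the call held with each of the 12 libraries left out (adjusted p at most 0.0255). Within 1 genotype it missed the threshold, at log2 -0.50 (SE 0.24, adjusted p = 0.174) in WT and log2 -0.85 (SE 0.23, adjusted p = 0.0793) in Aβ0/0. Without cTEC WT replicate 3 the WT difference passed (log2 -0.67, adjusted p = 0.0212). The summed fibroblast and thymocyte markers given above were also higher in every cTEC library than in every mTEC library, and in bulk sorted cells a change in the make-up of the sort and a change in RNA per cell cannot be told apart. The part of those markers in the difference was not tested. Sqstm1 overlaps the gene Mrnip on the opposite strand, which reached 25.8 TPM, and reads from the shared stretch cannot be told apart in libraries whose strand is not given in the sources used here.

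The 4 members that act in conjugation, Atg5, Atg7, Atg12 and Atg16l1, were not called between the subsets. Atg5, at chr10:44268358-44364291 on the plus strand, read 42.1, 57.2 and 44.7 CPM in WT cTEC, 46.9, 66.1 and 29.2 in Aβ0/0 cTEC, 41.5, 61.9 and 63.8 in WT mTEC and 40.9, 48.9 and 48.2 in Aβ0/0 mTEC. All 4 groups overlapped, and mTEC stood at log2 0.0861 (95% interval -0.39 to 0.56, edgeR adjusted p = 0.852) against cTEC. Atg7, at chr6:114643097-114860614 on the plus strand, ranged from 29.3 to 57.1 CPM in cTEC and from 25.3 to 59.9 CPM in mTEC, with log2 -0.0628 (95% interval -0.60 to 0.47, adjusted p = 0.920). Atg12 ranged from 29.1 to 69.8 CPM and from 40.0 to 57.4 CPM, with log2 -0.0676 (95% interval -0.50 to 0.37, adjusted p = 0.879). Atg16l1, at chr1:87755870-87792428 on the plus strand, ranged from 29.1 to 77.0 CPM and from 33.1 to 55.3 CPM, with log2 -0.22 (95% interval -0.74 to 0.31, adjusted p = 0.588). The interval of Map1lc3a (0.90 to 1.94) lay above those of these 4 genes, while the interval of Sqstm1 (-1.01 to -0.34) overlapped all 4. Differences between genes were not tested.

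Becn1, the scaffold of the class III PI3-kinase complex, read 109.6, 123 and 45.7 CPM in WT cTEC, 113, 123 and 119.7 in Aβ0/0 cTEC, 119, 137 and 128 in WT mTEC and 129.7, 66.5 and 103 in Aβ0/0 mTEC. The low values came from WT cTEC replicate 3 and Aβ0/0 mTEC replicate 2, and the subsets stood at log2 0.11 (95% interval -0.41 to 0.63, edgeR adjusted p = 0.828). Its most abundant transcript, Becn1-201, supplied 48.7% to 61.7% of its TPM by group mean and is annotated as subject to nonsense-mediated decay, while transcripts annotated as protein-coding held between 1.16% and 15.7% in single libraries. On coding transcripts alone the difference was log2 0.77 (edgeR adjusted p = 0.372). Becn1 (chr11:101285952-101302286, minus strand) shares 440 identical bases with Cntd1 on the opposite strand, whose counts were at most 4.45% of its own. Tfeb, at chr17:47737030-47792419 on the plus strand, was the scarcest member on the TPM scale with all transcripts summed, while on coding transcripts it was 10th only in Aβ0/0 mTEC and 9th, level with or just above Becn1 in WT and above it in Aβ0/0 cTEC, in the other groups. Tfeb read 16.3, 8.45 and 22.1 CPM in WT cTEC, 17.7, 10.1 and 18.5 CPM in Aβ0/0 cTEC, 16.2, 12.2 and 13.9 in WT mTEC and 16.7, 2.39 and 6.60 in Aβ0/0 mTEC. The wide interval for mTEC against cTEC, log2 -0.50 (95% interval -1.52 to 0.52, edgeR adjusted p = 0.506), leaves both a fall and a rise possible.

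**Figure D4:**
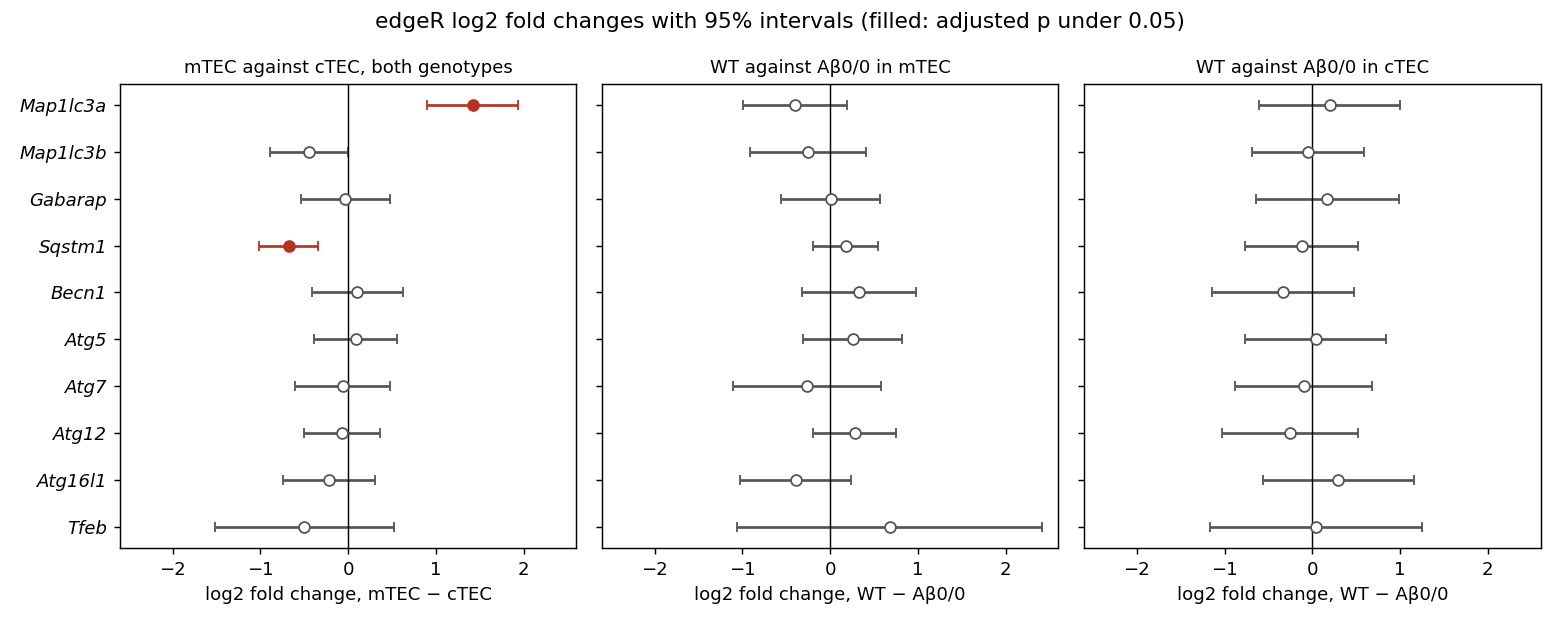
Log2 fold changes of the 10 genes with 95% intervals from edgeR, for mTEC against cTEC over both genotypes (left) and for WT against Aβ0/0 in mTEC (middle) and in cTEC (right). Filled points passed an adjusted p of 0.05, which were Map1lc3a (1.42) and Sqstm1 (-0.68) on the left and none in the other panels.

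None of the 10 genes differed by genotype past the threshold in either subset. In mTEC, 0 of 10 passed in edgeR and 0 had an unadjusted p under 0.05, while of all 18636 genes 5.66% passed (0 genes without any 1 of the mTEC WT libraries, and 2377, 83 and 13 genes without mTEC Aβ0/0 replicate 1, 2 and 3 against 1054 with all) and 15.3% had such a p. In cTEC both counts were 0 of 10, while of 15432 genes 0.0194% passed and 2.16% had such a p. The 333 genes with such a p became 1207 without cTEC Aβ0/0 replicate 1, and the 3 that passed became 1 without any of 5 of the 6 libraries. DESeq2, and limma on the deposited rlog values (the authors' regularised log2 counts), also called 0 of 10 in each subset. Of all genes, DESeq2 called 11.1% in mTEC and 121 of 18817 in cTEC. Limma called 661 of 34677 in mTEC and 3 of 34677 in cTEC, so that 0 of 10 is near the background in cTEC. Map1lc3a stood at log2 -0.40 in WT against Aβ0/0 mTEC (95% interval -0.99 to 0.19, edgeR adjusted p = 0.555) and at log2 0.20 in cTEC (95% interval -0.60 to 1.00, adjusted p = 1). Sqstm1 stood at log2 0.18 in mTEC (95% interval -0.19 to 0.55, adjusted p = 0.716) and log2 -0.12 in cTEC (-0.77 to 0.53, adjusted p = 1). The single member whose values did not overlap between the genotypes was Atg12 in mTEC, at 57.4, 57.1 and 48.7 CPM in WT and 40.0, 45.1 and 47.8 CPM in Aβ0/0 (log2 0.28, SE 0.20, edgeR adjusted p = 0.629), and 26.4% of all genes did not overlap in that comparison, 18.7% with WT the higher. In cTEC 0 of 10 were without overlap, against 7.85% of all genes. The share of Map1lc3a in the ATG8 sum was 32.7%, 32.0% and 34.3% in WT mTEC and 37.7%, 38.6% and 39.3% in Aβ0/0 mTEC, a separation noticed after the values were seen and not tested. On protein-coding transcripts alone these shares overlapped, at 10.3% to 13.1% and 11.6% to 15.8%.

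The difference between the subsets was not shown to depend on genotype for any member. In the interaction fit on 12 libraries, 0 of 10 passed the threshold in edgeR and 0 had an unadjusted p under 0.05, against 0.0103% and 6.9% of 19461 genes. DESeq2 and limma on rlog also called 0 of 10, against 398 of 19429 genes with DESeq2 and 777 of 34677 with limma. The 2 genes past the threshold in edgeR became 18 without mTEC Aβ0/0 replicate 1 and 6 without replicate 2, and 1 to 3 without any of the other 10 libraries. For Map1lc3a, whose call in both genotypes shares no library between them, the term was log2 -0.56 (SE 0.47, 95% interval -1.58 to 0.46, edgeR adjusted p = 0.931), and for Sqstm1 it was log2 0.34 (SE 0.31, 95% interval -0.33 to 1.01, adjusted p = 0.953).

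The wider machinery was read from a list of 99 autophagy and lysosome genes in 10 roles that includes the members. All 99 were tested. Over both genotypes 4 rose and 14 fell in mTEC past the threshold, while 15.1% of all genes rose and 9.2% fell. The median difference was log2 -0.33, with 28 of 99 genes above 0, and over all genes it was log2 0.10, with 54.38% above 0. Without the members, the other 89 genes had a median of log2 -0.33, with 3 risen and 13 fallen. The summed fibroblast and thymocyte markers were also lower in every mTEC library, with 3 of 6 and 7 of 9 called lower in mTEC, and their part in the list's difference was not tested. With the pool as a block 5 of the 99 rose and 24 fell, against 11.8% and 8.83% of all genes, and with RLE size factors 6 rose and 12 fell (15.6% and 8.39%). DESeq2 gave 8 risen and 19 fallen (20.4% and 11.7% of all genes), and limma on rlog 3 and 10 (10.6% and 4.12%). The number fallen was 9 without mTEC WT replicate 3 (6.38% of all genes) and 21 without mTEC Aβ0/0 replicate 1 (9.97%), and it lay between 11 and 17 with each of the other 10 libraries left out. Of the genes that fell, Calcoco1, a receptor for selective autophagy, was at log2 -1.75 (SE 0.22, edgeR adjusted p = 0.000206), with 109 to 310 CPM in cTEC and 50.0 to 82.7 CPM in mTEC. Lamp2, a major protein of the lysosomal membrane, was at log2 -1.60 (SE 0.19, adjusted p = 0.000149), with 819 to 1589 CPM and 337 to 560 CPM. Foxo1, a transcription factor for autophagy genes, was at log2 -1.45 (SE 0.24, adjusted p = 0.00138). The phosphoinositide-binding Wdr45 was at log2 -1.07 (SE 0.36, adjusted p = 0.0473, but 0.0625 with RLE size factors), and Ulk1, the kinase that starts autophagy, at log2 -0.86 (SE 0.22, adjusted p = 0.0156). Limma on rlog did not call Ulk1 (adjusted p = 0.0779) or Wdr45 (adjusted p = 0.0911). The 4 that rose were Map1lc3a (described above), Rragd, a Rag GTPase that signals amino acid supply to mTORC1 (log2 1.65, SE 0.25, adjusted p = 0.000608), Nrbf2, a subunit of the Beclin 1 complex (log2 0.93, SE 0.24, adjusted p = 0.0139), and Atg9b. Atg9b, which encodes one of the lipid scramblases that supply membrane, was at log2 2.83 (SE 0.85, adjusted p = 0.0305) but low, at 0.204 to 5.55 CPM in cTEC and 1.28 to 20.8 CPM in mTEC, and its call was lost with the pool as a block (adjusted p = 0.0687) and without any of 7 single libraries (0.0628 to 0.0706). Limma on rlog gave Atg9b log2 1.00 (adjusted p = 0.119). The call of Wdr45 was lost without any of 8 of the 12 (adjusted p up to 0.111).

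By role, the 13 cargo receptors, Sqstm1 among them, had a median of log2 -0.55 with 0 risen and 4 fallen (Calcoco1, Fundc1, Sqstm1 and Ncoa4). The 10 genes of fusion with the lysosome had a median of log2 -0.53 with 1 fallen, Rab7, and the 6 transcription factors log2 -0.55 with 1 fallen, while 9.2% of all genes fell. The 16 lysosomal genes known as TFEB targets had a median of log2 -0.062, with 8 of 16 above 0. Past the threshold 0 of the 16 rose and 4 fell, Lamp2 and Atp6v1a among them, against 15.1% and 9.2% of all genes. The 11 conjugation genes had a median of log2 -0.068, and the 2 that fell were Atg16l2 and Atg3, neither of them a member. Within WT 5 of 99 rose and 11 fell, against 18% and 8.81% of all genes, which for the list became 9 and 23 without cTEC WT replicate 3 (24.3% and 13.7% of all genes) and 1 and 6 without mTEC WT replicate 2 (13.5% and 4.13%) or 3 (13.7% and 4.54%). It became 2 and 8 without replicate 1 of cTEC WT (18.5% and 6.55%) or mTEC WT (12.9% and 4.86%). Within Aβ0/0 1 rose (Map1lc3a) and 2 fell, again Calcoco1 (log2 -1.61) and Lamp2 (log2 -1.65), against 3.45% and 2.15% of all genes. DESeq2 gave 3 risen and 6 fallen there (10.4% and 6.71% of all genes), edgeR on all 12 libraries 2 and 5 (5.5% and 3.84%), and limma on rlog 0 and 1 (0.516% and 0.205%). That call of Lamp2 was lost with limma on rlog (adjusted p = 0.0749) and without replicate 3 of either Aβ0/0 subset (adjusted p = 0.0536 in cTEC and 0.0765 in mTEC). Between the genotypes, 0 of 99 passed in edgeR in mTEC, in cTEC and in the interaction, against 5.66%, 0.0194% and 0.0103% of all genes. In the same order, 5, 1 and 4 of the 99 had an unadjusted p under 0.05, against 15.3%, 2.16% and 6.9% of all genes. Limma on rlog called 0 in each, against 661, 3 and 777 of 34677 genes. Without mTEC Aβ0/0 replicate 1, edgeR called 1 in mTEC, Atg4a (log2 1.88, adjusted p = 0.0429), higher in WT. DESeq2 called 4 in mTEC, where it called 11.1% of all genes. It called 0 in cTEC and in the interaction, against 121 of 18817 and 398 of 19429 genes. The 4 were Atp6v1b2 (log2 0.63, DESeq2 adjusted p = 0.00213), Bnip3 (log2 0.97, adjusted p = 0.0144) and Retreg1 (log2 0.97, adjusted p = 0.00433), higher in WT, and Calcoco1 (log2 -0.53, adjusted p = 0.00264), lower in WT.

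**Figure D5:**
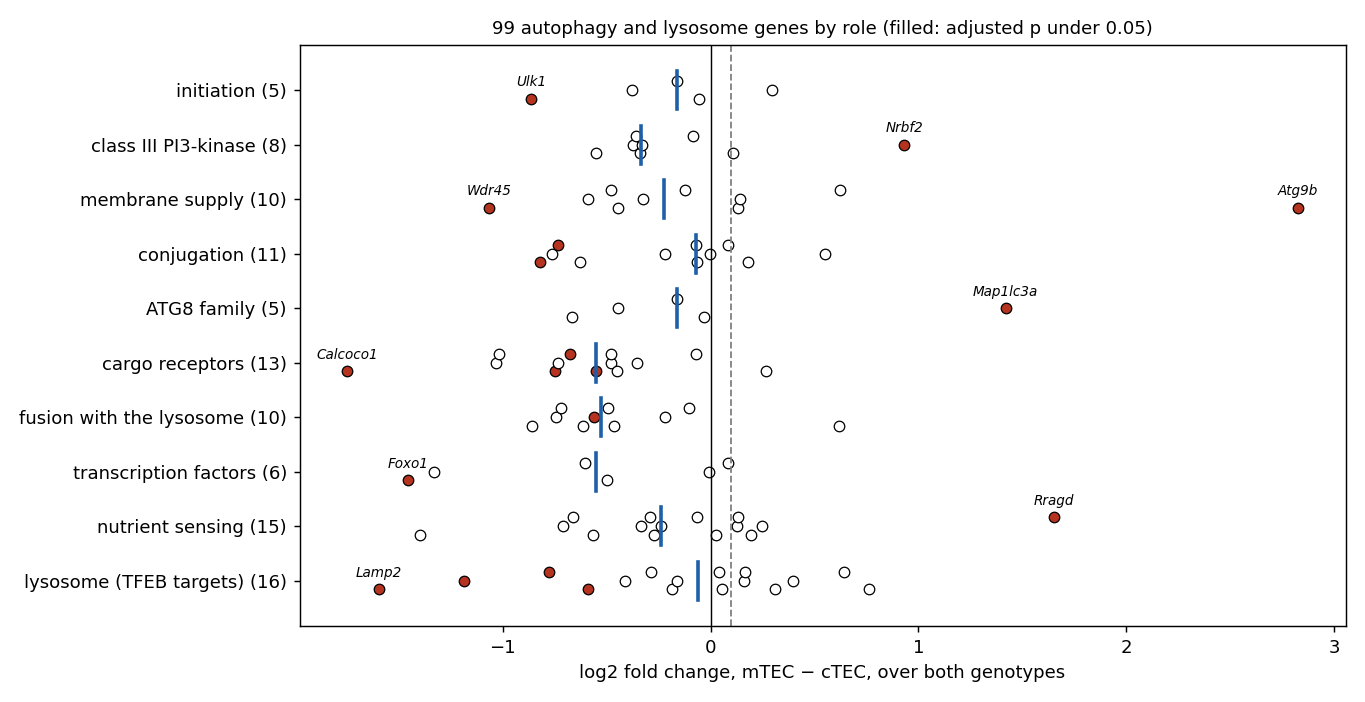
Log2 fold change of mTEC against cTEC over both genotypes for 99 genes (points) in 10 roles, with the number of genes in brackets. Blue lines are the medians of the roles, the dashed line is the median of all genes tested (0.10) and filled points passed an adjusted p of 0.05, with 4 of them above 0 and 14 below.

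For the 2 members that differed between the subsets, the genes with the most similar level over the 12 libraries were looked up by Pearson's r of log2 CPM. For Map1lc3a they were Csta1 (r = 0.984), a cystatin of stratified epithelia, Olfr716 (r = 0.972), annotated as an olfactory receptor, and Sectm1a (r = 0.964). For Sqstm1 they were Ccn2 (r = 0.957), a matricellular protein, Hadhb (r = 0.952), a subunit of the mitochondrial trifunctional protein, and Abhd16a (r = 0.950), a lipase. The libraries fall into 2 subsets, which any gene that differs between them shares, so that these values describe the pattern only.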

How the data were processed

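RNA of sorted cTEC and mTEC (12 libraries, 4 groups of 3, each library a separate pool of mice within its group) was amplified with the SMART-Seq v4 kit and sequenced paired-end on an Illumina HiSeq instrument. The submitters' processing notes name bcl2fastq 2.20.0, Trim Galore, kallisto 0.43, DESeq2 and mm10. The authors deposited kallisto output per library, with estimated counts and TPM (transcript abundance corrected for effective length and scaled to a fixed total) for 109282 transcripts. The authors also deposited rlog values, log2 counts regularised by DESeq2, whose 12 of 12 columns were most like their own library. kallisto divides reads shared by transcripts by a statistical estimate, so that transcript values carry an assignment error which the files do not give, and the SD covers the spread between pools only.

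Gene names and positions came from GENCODE M21, which annotates GRCm38 (mm10), through the transcript identifiers. The 1295 without a match, 0.45% to 0.512% of the counts, were left out. The other 107987 were summed to 34547 genes and rounded. The 6 comparisons were fitted across all genes with edgeR 4.0.16 in R 4.3.3 (robust quasi-likelihood test, TMM, filterByExpr), on the groups compared, with a Benjamini-Hochberg threshold of 0.05. All 10 members passed the filter in each fit. Intervals are at 95%. CPM were scaled with TMM over the 12 libraries, and TPM were summed per gene. The alternatives were RLE size factors, other count filters, DESeq2 1.42.0, limma 3.58.1 on rlog, a replicate block, a fit on all 12 libraries and leaving out each library. Summing coding transcripts alone, and adding the pseudogenes to Map1lc3b, were chosen after seeing the data. The procedure was tested on simulated data, where it missed part of the changes that were set, the largest part in the interaction, and some calls were false. Sequences were compared with Biopython 1.88 and BLAST 2.17.0.

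Both sorts of a genotype and number were taken to come from one pool, from the study's description of the sort. Their deviations from the group means correlated at 0.258, 0.0248 and 0.116 (WT) and 0.267, 0.117 and 0.0425 (Aβ0/0). The members and lists were chosen with earlier results of these data known. Named are all members, list genes past the threshold (at most 10 by size of change), the 3 genes most like a member called over both genotypes, and transcripts holding at least 10% of a member's TPM in a group. Some list genes that this rule names are not reported here. Gene sets were not tested.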

Additional observations from a re-analysis of the deposited data

How the results depend on the processing

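Map1lc3a and Sqstm1 over both genotypes kept their direction and call under all 20 alternatives (adjusted p at most 0.00874 and 0.0255). Of the members, 1 passed within WT, which became 0 with limma on rlog (Map1lc3a at log2 1.19, adjusted p = 0.0812) and with coding transcripts only, and 0 to 2 with 1 library left out. Within Aβ0/0 it was 1, which became 2 with DESeq2 and with all 12 libraries, the added gene being Sqstm1 (adjusted p = 0.00136 and 0.0314), 0 with limma on rlog and with coding transcripts only, and 0 to 1 with 1 library left out. There DESeq2 called 10.4% of all genes higher in mTEC and 6.71% lower, and the fit on all 12 libraries 5.5% and 3.84%. With the replicate block Map1lc3b was added over both genotypes and no other member's call changed. The genotype and interaction counts of members past the threshold were 0 under every alternative run, while the number of members with an unadjusted p under 0.05 between the mTEC genotypes was 1 with limma on rlog and without mTEC Aβ0/0 replicate 1 or 2. Of all genes, 4329 of 34677 had such a p with limma, 5559 of 19774 without replicate 1 and 4123 of 19601 without replicate 2. Calls over all genes moved more. In WT, mTEC against cTEC gave 4997 (2760 with all 12 libraries, 7572 without cTEC WT replicate 3), and in Aβ0/0 878 (2760 with DESeq2, 1819 with all 12 libraries, 250 with limma, 566 with coding transcripts). WT against Aβ0/0 gave 1054 in mTEC (2440 with DESeq2, 661 with limma, 20 with all 12 libraries, 27 unfiltered, 11 at a mean of at least 10 counts) and 3 in cTEC (121 with DESeq2, 16 with all 12 libraries, 7 unfiltered, 1 with coding transcripts). The interaction gave 2 (398 with DESeq2, 777 with limma). WT and Aβ0/0 share only a replicate number (r of 0.276, -0.0819 and 0.0325 in cTEC, and 0.288, 0.114 and 0.0627 in mTEC), and that block gave 0 in both subsets and in the interaction. The cause of these differences was not tested. Under alternatives other than leaving out a library, 484 member values kept direction and call and 29 changed sign, none of them past the threshold. With limma on rlog these were Atg7 (0.0647) and Gabarap (0.0434) in WT, Atg5 (0.0137), Atg7 (0.0458) and Gabarap (-0.0201) in Aβ0/0, Atg7 (0.0552) and Gabarap (0.0116) over both, Atg5 between the cTEC genotypes (-0.18), and Atg7 (0.0189), Gabarap (0.0634) and Map1lc3b (0.0256) in the interaction. Unfiltered they were Gabarap in Aβ0/0 (-0.0315) and Tfeb between the cTEC genotypes (-0.0369), and at a mean of at least 10 counts Gabarap in Aβ0/0 (-0.0182). With the block they were Atg5 in Aβ0/0 (0.0233), Gabarap over both (0.0035) and Tfeb between the cTEC genotypes (-0.0169). Gabarap over both gave 0.0091 with RLE and 0.0068 with DESeq2, which gave Tfeb -0.0126 between the cTEC genotypes. With coding transcripts they were Atg16l1 (-0.18), Atg7 (0.0436), Becn1 (0.81) and Atg5 (0.0023) in Aβ0/0, Gabarap over both (0.0321), Gabarap (-0.0189) and Becn1 (-0.0533) between the mTEC and Becn1 (0.0471) between the cTEC genotypes, and Becn1 in the interaction (-0.0905). With 1 library left out the sign changed for Gabarap (-0.29 to 0.36), Tfeb (-0.46 to 0.18) and Atg12 (-0.0351 to 0.36) in WT, and for Gabarap (-0.27 to 0.21), Atg5 (-0.33 to 0.25), Atg16l1 (-0.13 to 0.28) and Atg7 (-0.40 to 0.29) in Aβ0/0. Over both it changed for Gabarap (-0.19 to 0.19), Becn1 (-0.0646 to 0.21), Atg7 (-0.26 to 0.0701) and Atg5 (-0.0752 to 0.24). Between the mTEC genotypes it changed for Gabarap (-0.12 to 0.28) and Atg7 (-0.52 to 0.12). Between the cTEC genotypes it changed for Tfeb (-0.30 to 0.27), Map1lc3b (-0.23 to 0.10), Atg16l1 (-0.15 to 0.49), Atg5 (-0.22 to 0.34), Sqstm1 (-0.34 to 0.0387), Gabarap (-0.29 to 0.36), Map1lc3a (-0.20 to 0.44) and Atg7 (-0.29 to 0.22). In the interaction it changed for Map1lc3b (-0.34 to 0.0583), Gabarap (-0.32 to 0.33), Atg7 (-0.43 to 0.27) and Atg5 (-0.0575 to 0.53).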
